A study of Rattus norvegicus with 24 samples.

Results

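Aif1 and Cd74 are 2 of the 24613 genes in a matrix of read counts from rat dorsal root ganglia (DRG), which hold the cell bodies of sensory neurons. They were taken by Ensembl identifier, ENSRNOG00000000853 for Aif1 and ENSRNOG00000018735 for Cd74, and are described across all 24 samples. Both genes passed the filter on low counts in every set of samples that was tested. The study sequenced poly-A RNA from whole DRG of adult female Sprague Dawley rats to compare the type of spinal cord injury (SCI) and the effect of exercise after a contusion. Each sample was 1 rat, whose ganglia from T11 to L4 on both sides, below the level of injury, were collected together.

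No SCI was 4 uninjured rats without exercise. CONT SCI was 6 rats whose cord was contused at T2 (25 g-cm, NYU Impactor) after a laminectomy of that vertebra, without exercise. CONT SCI + SWIM and CONT SCI + SWW were 5 rats each with the same contusion, which swam or walked in shallow water on 5 days a week for 10 weeks, starting 2.5 weeks after injury. TX SCI was 4 rats whose cord was cut through at T2, without exercise. All rats, the uninjured ones included, lived in tiny cages that restricted walking. They were housed in pairs within their group. Cage was not among the sample labels, so each rat was tested as a separate sample. Tissue was taken 8.5 weeks after surgery in TX SCI, at 11.5 weeks in No SCI and CONT SCI and at 13.5 weeks in both exercised groups. The time of collection therefore cannot be told apart from transection or from exercise in any comparison between groups collected at different times.

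Aif1 encodes Iba1, a calcium-binding protein that bundles actin and is widely used to stain macrophages and microglia. Cd74 encodes the invariant chain, which escorts newly made MHC class II molecules to the endosome and blocks their peptide groove until antigen can be loaded, and which at the cell surface is a receptor for macrophage migration inhibitory factor. Resident macrophages lie among the neurons and satellite glia of the DRG, and class II molecules are carried by macrophages and other antigen-presenting cells. These are whole-tissue samples, so more or fewer cells of a type and more or less RNA in each cell cannot be told apart. Other genes of macrophages, of class II presentation and of the remaining DRG cell types were not picked out by name here. Genes given below by identifier alone could be among them. Names were missing because the matrix gives Ensembl identifiers alone, and the 47357 genes of the RefSeq table at hand carry 0 of these. The tissue label was for the same reason not checked against marker genes.

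Total counts ran from 16086670 reads in CONT SCI + SWIM replicate 2 to 38730307 reads in TX SCI replicate 3. The median total was 30079100 in No SCI, 32731949 in CONT SCI, 25550757 in CONT SCI + SWIM, 28141769 in CONT SCI + SWW and 28132902 in TX SCI. Aif1 had 197 to 451 reads a sample, at which counting error alone gives a coefficient of variation of 4.71% to 7.12%. Cd74 had 2786 to 5538 reads, with a counting error of 1.34% to 1.89%. Levels below are CPM, the usual scaling of a gene's reads to the size of its library, here after TMM normalization, and because no gene length was used, the level of one gene is not compared with that of the other.

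Aif1 stood at 8.63, 9.16, 10.7 and 8.93 CPM in No SCI replicates 1 to 4, a mean of 9.36 ± 0.923 (SD, n = 4). In CONT SCI the lowest sample had 8.34, the median was 9.70 and the highest, replicate 6, had 13.7 CPM, with a mean of 10.2 ± 2.00 (SD, n = 6). These groups overlapped, and the high sample made CONT SCI the most spread of the 5 groups for this gene. In CONT SCI + SWIM the replicates had 12.2, 13.01, 15.7, 13.4 and 15.4 CPM (mean 13.9 ± 1.52, SD, n = 5). In CONT SCI + SWW they had 11.6, 12.0, 12.8, 11.2 and 11.6 CPM (mean 11.8 ± 0.642, SD, n = 5). In TX SCI they had 9.45, 11.6, 10.3 and 12.6 CPM (mean 10.99 ± 1.39, SD, n = 4). Every swimming and every shallow water walking sample lay above the highest No SCI sample, where 23.95% and 21.4% of 15247 genes had groups that did not overlap in either direction. TX SCI overlapped each of the other groups.

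Cd74 stood at 149, 132, 129.9 and 141 CPM in No SCI replicates 1 to 4 (mean 138 ± 8.72, SD, n = 4). In CONT SCI the lowest sample had 117, the median was 136 and the highest, replicate 4, had 175 CPM (mean 143 ± 23.0, SD, n = 6). Replicates 4 and 6 of CONT SCI lay above all No SCI samples, and 2 other CONT SCI samples lay below all of them. In CONT SCI + SWIM the replicates had 177, 182, 164, 163 and 182 CPM (mean 174 ± 9.43, SD, n = 5). In CONT SCI + SWW they had 154, 151, 216, 186 and 151 CPM (mean 172 ± 28.9, SD, n = 5), with replicate 3 the highest of all 24 samples. In TX SCI they had 134, 109, 84.9 and 107 CPM (mean 109 ± 19.9, SD, n = 4). Replicate 1 of TX SCI was the only transected sample within the No SCI range, and all 4 lay below every exercised sample, where 16.1% of genes had no overlap with swimming and 18.6% none with walking.

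**Figure D1:**
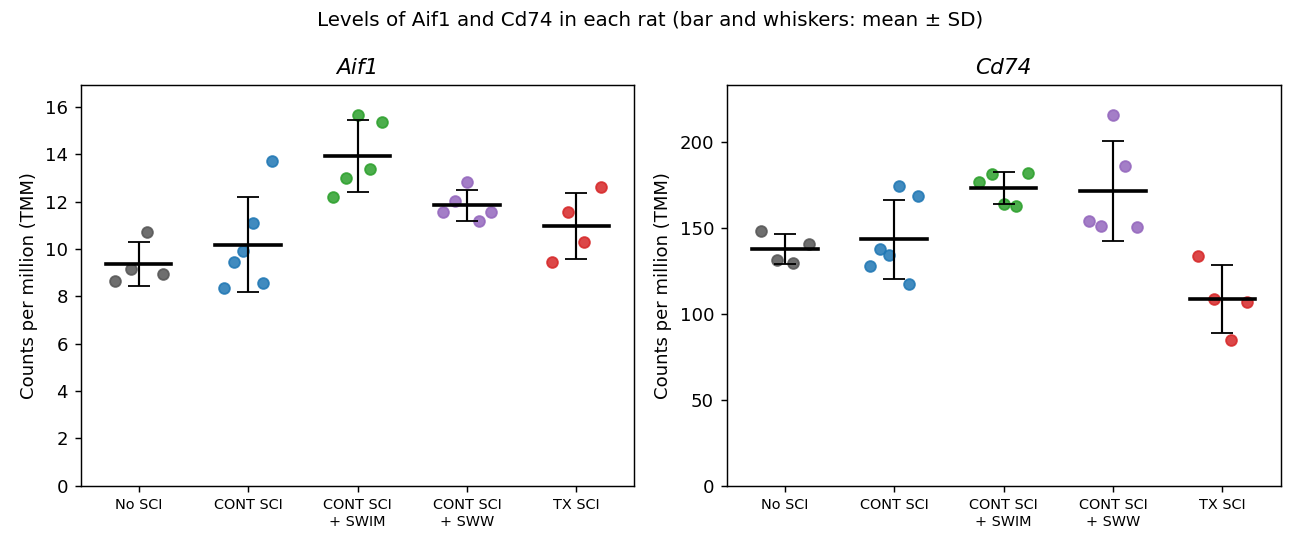
Each point is 1 rat, the y axis is the level in CPM after TMM scaling, from 0, and the bar and whiskers are the group mean and SD. For Aif1 the swimming samples, at 12.2 to 15.7 CPM, all lie above the No SCI samples, as 23.95% of genes did not overlap there. For Cd74 the TX SCI samples, at 84.9 to 134 CPM, all lie below both exercised groups, for which 16.1% (swimming) and 18.6% (walking) of genes did not overlap.

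By mean level Aif1 ran from No SCI through CONT SCI, TX SCI and CONT SCI + SWW to CONT SCI + SWIM. No neighbours in this order differed past the threshold of 0.05 on the adjusted p, which was 0.719, 0.447, 0.559 and 0.262 from the bottom of the order to the top (edgeR's quasi-likelihood test, adjusted over all genes by Benjamini and Hochberg, as for every edgeR adjusted p in what follows). In these pairs 10.4%, 40.4%, 22% and 2.99% of genes passed. Cd74 ran from TX SCI through No SCI, CONT SCI and CONT SCI + SWW to CONT SCI + SWIM. Of its 4 neighbouring pairs, 1 differed past the threshold, CONT SCI + SWW over CONT SCI (edgeR adjusted p = 0.0423), where 43% of genes passed. This call was lost under several alternatives, among them without CONT SCI + SWW replicate 3 (0.16, edgeR adjusted p = 0.185). The others had adjusted p of 0.0531, 0.879 and 0.958, where 34.8%, 10.4% and 2.99% of genes passed. In a single test over all 5 groups both genes passed (edgeR adjusted p = 0.00163 for Aif1 and 0.000272 for Cd74), in a test that 60.8% of 15247 genes passed.

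The first question was how the type of injury bears on these genes without exercise. After contusion neither gene differed past the threshold from No SCI, in a comparison where 10.4% of 15126 genes did. Aif1 was at a log2 fold change of 0.11 (95% confidence interval -0.16 to 0.39, edgeR adjusted p = 0.719) and Cd74 at 0.05 (-0.20 to 0.30, adjusted p = 0.879). Without CONT SCI replicate 4 the Cd74 value was -0.01, so its sign rests on that library. The Aif1 value was 0.015 without CONT SCI replicate 6 and 0.19 without No SCI replicate 3, the ends of its range over the alternatives, and did not pass under any of them. With the total count of the library as a term, chosen after the data were seen, the Cd74 value was 0.15 and did not pass.

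After transection Aif1 was at a log2 fold change of 0.24 against No SCI (-0.06 to 0.54, edgeR adjusted p = 0.199), with 2 of 4 TX SCI samples above the highest No SCI sample. Cd74 was at -0.34 (-0.61 to -0.06, adjusted p = 0.0531), with 3 of 4 TX SCI samples below the lowest No SCI sample. Neither passed the threshold, against 34.8% of genes that did. The Cd74 value lay close to the threshold and passed it without TX SCI replicate 1 (-0.46, adjusted p = 0.0132) and under 6 other alternatives. Over all alternatives, those that did not pass included, the adjusted p ran from 0.00114 to 0.165, the highest without TX SCI replicate 3 (-0.24).

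Between both injuries Cd74 was lower after transection, by a log2 fold change of -0.39 (SE 0.12, a fold of 0.764, 95% confidence interval 0.642 to 0.909, edgeR adjusted p = 0.0160), with 3 of 4 TX SCI samples below the lowest of the 6 CONT SCI samples. In this comparison 40.4% of genes passed, and 13.1% of genes had a more negative value than Cd74. Aif1 was at 0.13 (-0.14 to 0.40, adjusted p = 0.447), with all TX SCI samples inside the CONT SCI range. The Aif1 value was 0.042 without TX SCI replicate 4 and 0.22 without CONT SCI replicate 6, the ends of its range over the alternatives, and did not pass under any of them. The Cd74 call was lost without TX SCI replicate 3, the lowest sample (-0.29, adjusted p = 0.0647, in a range of 0.000163 to 0.0647 over the alternatives). It was kept with the total count as a term, at -0.60 (edgeR adjusted p = 0.000163). These 3 comparisons share their samples in pairs, so they are not independent of each other. In those with TX SCI, time of collection differs along with the injury.

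The next question was how both genes stood after swimming and shallow water walking. Exercised rats were collected at 13.5 weeks and CONT SCI and No SCI at 11.5 weeks. Exercise and time therefore cannot be told apart in any comparison of an exercised group with these. Against CONT SCI, Aif1 rose with swimming by a log2 fold change of 0.45 (SE 0.11, a fold of 1.36, 95% confidence interval 1.17 to 1.59, edgeR adjusted p = 0.00258), with 2 of 5 samples above the highest CONT SCI sample. With swimming 32.1% of 15179 genes passed, and 4.05% of genes had a larger rise than Aif1. The call held with each replicate of the compared groups left out (0.40 to 0.55) and was lost with the total count of the library as a term (0.40, adjusted p = 0.0826, in a range of 7.80e-05 to 0.0826 over the alternatives). Cd74 rose with swimming by 0.27 (SE 0.10, a fold of 1.21, interval 1.05 to 1.39, adjusted p = 0.0416), with 3 of 5 samples above the highest CONT SCI sample. This call was lost when any 1 of CONT SCI replicates 1, 3 and 5 (0.24, 0.25 and 0.22) or CONT SCI + SWIM replicates 1, 2 and 5 (0.26, 0.25 and 0.26) was left out, with all 24 samples in the fit (0.28, adjusted p = 0.0537) and with the total count as a term (0.06, adjusted p = 0.792). The adjusted p ran from 0.00975 to 0.792 over the alternatives.

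Against CONT SCI, shallow water walking came with a Cd74 rise of 0.26 (SE 0.10, a fold of 1.19, interval 1.03 to 1.38, edgeR adjusted p = 0.0423), with 2 of 5 samples above the CONT SCI range. The share of genes that passed was 43%, and 16.2% had a larger rise. The Cd74 call was lost without CONT SCI replicate 1, 2, 3 or 5 (0.23, 0.26, 0.24 and 0.20) and without CONT SCI + SWW replicate 3 or 4 (0.16 and 0.23), the highest walking samples. It was lost as well with all 24 samples in the fit (0.26, adjusted p = 0.0565), with only these groups (0.27, 0.0731) and with the total count as a term (0.10, 0.529), in a range of 0.0102 to 0.529 over the alternatives. Aif1 did not pass, at 0.22 (-0.0041 to 0.44, adjusted p = 0.106), and all walking samples lay inside the CONT SCI range. Without CONT SCI replicate 6, the highest of that group, Aif1 passed at 0.32 (adjusted p = 0.00622, in a range of 0.00408 to 0.315 over the alternatives), as it did with every library thinned at random to the smallest total (0.31) and with same-numbered replicates as a block (0.32). Replicate 6 is in CONT SCI alone, so the block value does not draw on it and is no separate check of its removal.

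Against No SCI, Aif1 rose with swimming by 0.57 (SE 0.12, a fold of 1.48, interval 1.25 to 1.76, edgeR adjusted p = 0.00113), the largest log2 fold change of this gene among the 10 pairs of groups. Of the genes tested, 28.1% passed and 3.16% rose further, and the call held with each replicate of the compared groups left out (0.52 to 0.64). Cd74 rose by 0.33 (SE 0.11, a fold of 1.26, interval 1.07 to 1.48, adjusted p = 0.0305). The samples of swimming rats lay above every No SCI sample for both genes, as 23.95% of 15247 genes had groups that did not overlap in either direction. The Cd74 call was lost without No SCI replicate 2, 3 or 4 (0.30, 0.30 and 0.34) and without CONT SCI + SWIM replicate 1, 2 or 5 (0.32, 0.31 and 0.32). With the total count as a term it was lost at 0.17 (adjusted p = 0.368, in a range of 0.00144 to 0.368 over the alternatives).

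Shallow water walking against No SCI gave a rise of 0.34 for Aif1 (SE 0.12, a fold of 1.26, interval 1.06 to 1.498, edgeR adjusted p = 0.0448) and of 0.32 for Cd74 (SE 0.11, a fold of 1.24, interval 1.06 to 1.46, adjusted p = 0.0442). For both genes the groups did not overlap, as for 21.4% of genes, and 22.9% of genes passed the test. The Aif1 call was lost without No SCI replicate 1, 2 or 4 (0.29, 0.31 and 0.32) or any 1 of the walking replicates 1 to 5 (0.35, 0.33, 0.31, 0.36 and 0.35), with thinned libraries (0.36, adjusted p = 0.0511) and with the total count as a term (0.31, 0.106), in a range of 0.00958 to 0.143 over the alternatives. The Cd74 call was lost without any 1 of No SCI replicates 1 to 4 (0.34, 0.28, 0.28 and 0.33) or CONT SCI + SWW replicate 3 or 4 (0.22 and 0.28), with all 24 samples in the fit (0.32, adjusted p = 0.0592) and with the total count as a term (0.21, 0.204), in a range of 0.0258 to 0.204 over the alternatives. Comparisons with No SCI and with CONT SCI share the exercised samples, and those of swimming and walking share their reference group. The exercised groups differ from No SCI in injury, exercise and time of collection together.

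Between the exercises, collected at the same time, 2.99% of genes passed and neither gene was among them. That share was 454 genes, and 123 to 811 passed with a replicate left out. Aif1 was at 0.23 for swimming against walking (interval on the log2 scale 0.0013 to 0.46, edgeR adjusted p = 0.262), with 4 of 5 swimming samples above the highest walking sample. Cd74 was at 0.01 (-0.20 to 0.23, adjusted p = 0.958), with no sample of swimming rats outside the range of walking rats. Its value ran from -0.026 to 0.11 with each replicate left out and was -0.036 with the total count as a term, so its sign is not settled. A rise of Aif1 that passed the threshold against CONT SCI after swimming and not after walking is therefore not shown to differ between the exercises.

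**Figure D2:**
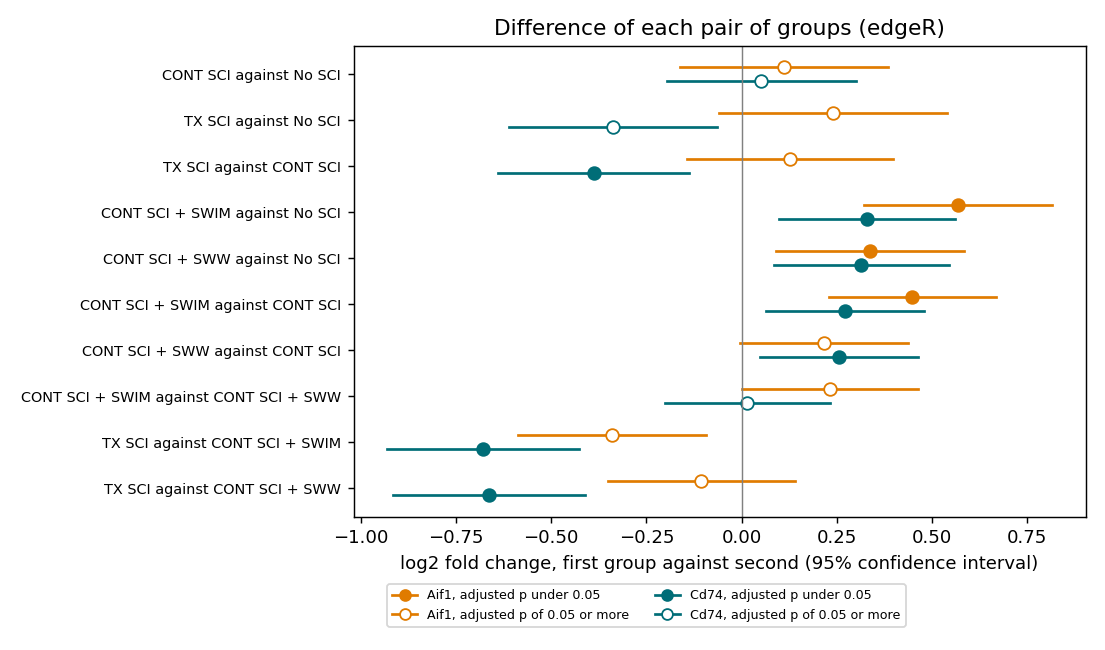
The x axis is the log2 fold change of the first group against the second, with points for the estimate and lines for the 95% confidence interval, and filled points have an edgeR adjusted p under 0.05. Aif1 passed in 3 and Cd74 in 7 of the 10 pairs of groups, where 2.99% to 43% of genes passed, depending on the pair. The Aif1 call in CONT SCI + SWIM against No SCI held under all alternatives. So did the Cd74 calls in TX SCI against both exercised groups, and the other calls did not. The intervals of Cd74 farthest from 0 are those of TX SCI against the exercised groups, at -0.68 and -0.66.

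The widest separation of Cd74 was between transected and exercised rats. It was lower in TX SCI than in CONT SCI + SWIM by a log2 fold change of -0.68 (SE 0.12, a fold of 0.625, interval 0.524 to 0.744, edgeR adjusted p = 0.000815), where 14.4% of 15247 genes passed and 1.79% of genes were further down. Against CONT SCI + SWW it was at -0.66 (SE 0.12, a fold of 0.632, interval 0.531 to 0.753, adjusted p = 0.000630), where 22% passed and 1.95% were further down. All 4 TX SCI samples lay below all samples of each exercised group, which did not overlap with TX SCI for 16.1% and 18.6% of genes. Both calls held with each replicate of the compared groups left out, at -0.80 to -0.58 against swimming and -0.77 to -0.55 against walking. These groups differ in injury, exercise and time of collection together.

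Aif1 was at -0.34 in TX SCI against CONT SCI + SWIM (-0.59 to -0.09, edgeR adjusted p = 0.0570), with 3 of 4 samples below the lowest swimming sample, and at -0.11 against CONT SCI + SWW (-0.35 to 0.14, adjusted p = 0.559). Neither passed. The second was -0.037 without TX SCI replicate 1 and -0.19 without TX SCI replicate 4, and did not pass with any replicate left out. The first passed without CONT SCI + SWIM replicate 1 (-0.38) or TX SCI replicate 4 (-0.42), with adjusted p of 0.0469 and 0.0379 in a range of 0.0214 to 0.141 over the alternatives, and under 4 other alternatives.

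The number of Cd74 reads for each Aif1 read in the same library does not depend on how libraries are scaled, and is compared here between groups only. The mean ± SD was 14.9 ± 2.16 for the 4 No SCI, 14.2 ± 1.27 for the 6 CONT SCI, 12.6 ± 1.64 for the 5 CONT SCI + SWIM, 14.5 ± 2.08 for the 5 CONT SCI + SWW and 10.1 ± 2.76 for the 4 TX SCI samples. TX SCI replicates 2, 3 and 4 had 9.37, 8.24 and 8.50 Cd74 reads per Aif1 read, below every other sample, while replicate 1 had 14.1. Replicate 1 was the smallest TX SCI library and replicate 3 the largest. Within groups Cd74 moved with the total count and Aif1 did not, as described below. The ratio was not tested with the total count as a term. The log2 of this ratio differed among the 5 groups (F = 5.10, permutation test with 100000 permutations, p = 0.00702). F was 10.95 without TX SCI replicate 1 (permutation p = 0.00031) and 3.70, 3.27 and 3.34 without replicates 2, 3 and 4 of that group, the highest p being 0.0342. Of the 10 pairs of groups, 0 passed after Benjamini-Hochberg adjustment in a two-sided exact permutation test, and 2 had an unadjusted p under the threshold. The lowest p was that of TX SCI against CONT SCI, at a difference in mean log2 ratio of -0.53 (exact permutation p = 0.0190, adjusted 0.190 over 10 pairs). A p of 0.00476 is the smallest that 4 samples against 6 allow in the exact test. The smallest p is 0.00794 for 5 samples against 4 or 5, and 0.0286 for 4 against 4. Alone, neither could pass after adjustment over the 10 pairs, so the adjusted result decides little for such pairs. The largest difference, TX SCI against No SCI at -0.59, was of the last kind (exact permutation p = 0.0571, adjusted 0.190).

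Within CONT SCI, the group with 6 samples, rats with more Aif1 also had more Cd74 (log2 CPM, Pearson's r = 0.871, exact permutation p = 0.025, adjusted 0.05 over 4 relations). Spearman's rho was 0.829 (exact permutation p = 0.0583, adjusted 0.117). The 2 samples farthest from the Aif1 median were then left out, and r was 0.961 over 4 samples (exact permutation p = 0.125). Over all 24 samples about their group means r was 0.326 (permutation p = 0.197, adjusted 0.263) and rho 0.164 (permutation p = 0.47, adjusted 0.626), with r at 0.189 over 22 samples. This r was 0.529 without TX SCI replicate 1 (permutation p = 0.0218, not adjusted) and 0.175 without CONT SCI replicate 6 (permutation p = 0.489), so its size and its side of the threshold depend on single libraries. None of the adjusted p of Aif1 with Cd74 over the full sets of samples was under 0.05.

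Cd74 moved with the total count of the library within groups, a relation examined after the levels were seen. About the group means, r between log2 total count and log2 CPM was -0.653 for Cd74 (24 samples, permutation p = 0.00104, adjusted 0.00416 over 4 relations) and rho was -0.670 (permutation p = 0.00123, adjusted 0.00492). Without the 2 samples farthest from the median of the total count about the group means r was -0.616 (permutation p = 0.00697). For Aif1, r was -0.0198 (permutation p = 0.928, adjusted 0.928) and rho -0.0670 (permutation p = 0.775, adjusted 0.775). In TX SCI the smallest library, replicate 1 with 20040086 reads, had the highest Cd74 level, 134 CPM, and the largest, replicate 3 with 38730307 reads, had the lowest, 84.9 CPM. Both held in no other group. The smallest library had the highest level in CONT SCI as well but ranked 3 of 4 from the bottom in No SCI and 4 of 5 in each exercised group, and the largest had the lowest level in No SCI and CONT SCI + SWIM but ranked 2 in CONT SCI and CONT SCI + SWW.

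Across the matrix this relation did not stand out gene by gene. With the total count as a term beside the groups over all 24 samples, Cd74 changed by -0.49 on the log2 scale per doubling of the total (SE 0.13) and 3.21% of genes were further down. Of 15247 genes, 0 passed for this term in edgeR (0%). An unadjusted p under 0.05 was found for 464 genes, a smaller share than that threshold alone would give. Cd74 itself had an unadjusted p of 0.000648 and an adjusted p of 0.9999 for the term in edgeR. With the same term in the fit of the 20 exercise and reference samples, also chosen after the data were seen, Cd74 passed for neither exercise against CONT SCI or No SCI, at the values given above. The exercised libraries were smaller than those of CONT SCI at the median, so the term and the groups overlap in that fit. Thinning keeps each gene's expected share of its library, so the thinned libraries do not bear on the relation of Cd74 with the original total. Cd74 in TX SCI was lower than in both exercised groups with the term over all 24 samples and in the other alternatives. The Aif1 rise with swimming against No SCI passed with the term.

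**Figure D3:**
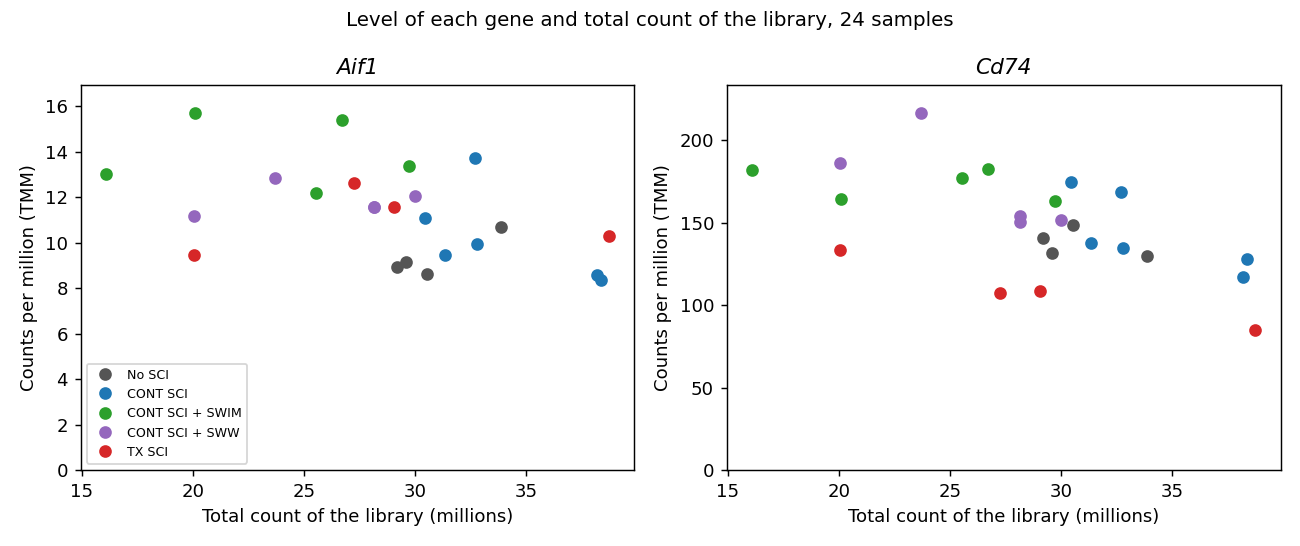
Each point is 1 of the 24 samples, with the total count of its library on the x axis and its level in CPM after TMM scaling on the y axis from 0. Within groups Cd74 is higher in smaller libraries (r = -0.653 about the group means), and Aif1 is not (r = -0.0198).

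The genes most alike to each in pattern were ranked by Pearson's r of log2 CPM over the 24 samples among 13479 genes, as a description. For Aif1 they were ENSRNOG00000005825 (r = 0.882) and ENSRNOG00000045854 (r = 0.803). The mean level ± SD of ENSRNOG00000005825 was 125 ± 14.4 CPM for No SCI, 145 ± 39.1 for CONT SCI, 152 ± 15.2 for TX SCI, 195 ± 17.6 for CONT SCI + SWW and 212 ± 12.6 CPM for CONT SCI + SWIM, the same order of groups as Aif1. ENSRNOG00000045854 had another order, with TX SCI (17.3 CPM) above CONT SCI + SWW (17.2 CPM). ENSRNOG00000005825 was ranked 1 by Spearman's rho as well and 4 by r about the group means, while ENSRNOG00000045854 fell to rank 30 and 121.

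For Cd74 the most alike were ENSRNOG00000028566 (r = 0.915) and ENSRNOG00000000451 (r = 0.883). ENSRNOG00000000451 was ranked 1 by rho (0.919) and by r about the group means (0.917), so it followed Cd74 from rat to rat within groups. ENSRNOG00000028566 was ranked 2 by rho and 6 about the group means. Neither had the group order of Cd74, since mean levels were 44.5 CPM in CONT SCI and 43.2 CPM in CONT SCI + SWW for ENSRNOG00000000451, and 11.3 CPM in CONT SCI and 11.9 CPM in No SCI for ENSRNOG00000028566. Aif1 itself was at rank 531 in likeness to Cd74 (r = 0.485), and Cd74 at rank 1385 in likeness to Aif1.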

How the data were processed

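RNA of 24 samples was sequenced as single-end reads from stranded poly-A libraries. The authors aligned the reads to Rn6 with STAR, counted them per gene on the strand of the kit with HTSeq 0.10.0 (Ensembl release 93, mitochondrial genes removed) and deposited whole-number counts without normalization. Whether reads that fit several places or genes entered these counts was not checked. In R 4.3.3, edgeR 4.0.16 was run on all genes kept by filterByExpr (minimum count 10, minimum total 15) with TMM scaling and glmQLFTest, with p-values adjusted after Benjamini and Hochberg and called under 0.05. The injury groups (14 samples), the exercise groups with CONT SCI and No SCI (20 samples) and, for TX SCI against exercise, all 24 samples each shared a fit. Standard errors are the log2 fold change over the square root of F. Log2 CPM used a prior count of 2. The genes named are both members and, for each, the 2 genes with the highest r among those with a mean of at least 1 CPM. Alternatives were DESeq2 1.42.0, other scalings, filters and fits, thinned libraries and each sample left out. Permutation tests used Python 3.11.15 with numpy 2.4.6 and scipy 1.17.1. Scripts were tested on simulated data. The 47 pairs of replicates differed by more than counting noise. The members and lists were chosen with earlier results of these data known.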

Additional observations from a re-analysis of the deposited data

Results flagged for a closer look

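In 25 sets of values (both genes, their ratio, the total count and the mean correlation with group members, each in 5 groups), 1 extreme sample stood apart by its gap to the nearest one. Chance gives about 1 in 20 such sets. CONT SCI replicate 4 correlated least with its group across all genes, at a mean r of 0.989, where its group members had 0.991 to 0.992, a gap of 0.670 of the range. It is also the CONT SCI sample with the most Cd74, and without it the Cd74 log2 fold change of CONT SCI against No SCI was -0.01 in place of 0.05.

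Cd74 against No SCI was at 0.05 after contusion and -0.34 after transection on the log2 scale, and neither passed (edgeR adjusted p = 0.879 and 0.0531). The test of their difference is that of TX SCI against CONT SCI, at -0.39 (adjusted p = 0.0160), and this call was lost without TX SCI replicate 3 (-0.29, adjusted p = 0.0647, in a range of 0.000163 to 0.0647 over the alternatives). The groups were collected at different times, and time and injury cannot be told apart.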

How the results depend on the processing

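The alternatives were RLE or total-count scaling, no filter, DESeq2, all 24 samples or only the compared groups in the fit, a replicate block, libraries thinned to the smallest total, each replicate left out and, added after the data were seen, the log2 total count as a term. The causes of the changes were not tested. Cd74 in TX SCI against both exercised groups and Aif1 in CONT SCI + SWIM against No SCI kept direction and call under all of them, as did the tests of both genes over the 5 groups and of their ratio over the 5 groups (F from 3.27 to 10.95 with a replicate left out) under the alternatives run for those. Cd74 in TX SCI against No SCI (-0.34) passed at -0.34 without a filter (adjusted p = 0.0485), -0.34 with DESeq2 (0.0387), -0.34 with all 24 samples (0.0359), -0.36 with only those groups, -0.35 with the replicate block and -0.46 with the total count (0.00114). With all 24 samples the Cd74 calls were lost in CONT SCI + SWW against No SCI (0.32) and CONT SCI (0.26) and in CONT SCI + SWIM against CONT SCI (0.28), and with only the compared groups in CONT SCI + SWW against CONT SCI (0.27). Aif1 in TX SCI against CONT SCI + SWIM passed at -0.35 with RLE, -0.35 with DESeq2, -0.34 with the replicate block and -0.36 with only those groups.

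With thinned libraries all Cd74 calls were kept, Aif1 in CONT SCI + SWW did not pass against No SCI (0.36) and passed against CONT SCI (0.31), and the log2 ratio of Cd74 to Aif1 changed sign for CONT SCI against No SCI (0.015 in place of -0.061) and for CONT SCI + SWW against CONT SCI (-0.060 in place of 0.022). With the total count as a term, the Cd74 calls were lost in CONT SCI + SWIM against No SCI (0.17) and CONT SCI (0.064) and in CONT SCI + SWW against No SCI (0.21) and CONT SCI (0.10), the Aif1 calls in CONT SCI + SWW against No SCI (0.31) and CONT SCI + SWIM against CONT SCI (0.40), and Cd74 for CONT SCI + SWIM against CONT SCI + SWW was at -0.036 in place of 0.01.

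Same-numbered samples did not pair. In 0 of 10 comparisons did every pair of them deviate together from the group means (r above 0.1), and the mean r was -0.104 to 0.0476. With the replicate block Aif1 in CONT SCI + SWW against CONT SCI passed at 0.32, and 251 genes passed between the exercises in place of 454. Replicate 6 is in CONT SCI alone, so that Aif1 value does not draw on it.

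With each replicate left out, log2 fold changes of Aif1 ran from 0.015 to 0.19 (CONT SCI against No SCI), 0.042 to 0.22 (TX SCI against CONT SCI), -0.19 to -0.037 (TX SCI against CONT SCI + SWW), 0.17 to 0.32 (CONT SCI + SWW against CONT SCI), 0.29 to 0.41 (CONT SCI + SWW against No SCI) and -0.42 to -0.28 (TX SCI against CONT SCI + SWIM). Those of Cd74 ran from 0.22 to 0.33 (CONT SCI + SWIM against CONT SCI), 0.30 to 0.36 (CONT SCI + SWIM against No SCI), 0.16 to 0.32 (CONT SCI + SWW against CONT SCI), 0.22 to 0.37 (CONT SCI + SWW against No SCI), -0.026 to 0.11 (CONT SCI + SWIM against CONT SCI + SWW), -0.0089 to 0.11 (CONT SCI against No SCI), -0.52 to -0.29 (TX SCI against CONT SCI) and -0.46 to -0.24 (TX SCI against No SCI). The difference in log2 ratio ran from -0.15 to 0.014 (CONT SCI against No SCI), -0.13 to 0.036 (CONT SCI + SWW against No SCI) and -0.035 to 0.070 (CONT SCI + SWW against CONT SCI). The correlation within CONT SCI ran from 0.851 to 0.950, with 2 of 6 p-values under 0.05, and was 0.961 without the 2 samples farthest from the Aif1 median. That about the group means ran from 0.175 to 0.529, the highest without TX SCI replicate 1 (permutation p = 0.0218).

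Genes that passed between the exercises numbered 454, against 821 with DESeq2, 252 with the total count and 123 to 811 with a replicate left out. With the total count 2220 in place of 4262 passed for CONT SCI + SWIM against No SCI and 1993 in place of 4880 against CONT SCI. Without No SCI replicate 2, 1041 in place of 1578 passed for CONT SCI, and without TX SCI replicate 4, 1333 in place of 2193 and 2026 in place of 3359 for TX SCI against swimming and walking. With total-count scaling the share of calls that were higher moved from 49.1% to 60.1% for TX SCI, from 39.2% to 54.5% for CONT SCI + SWIM and from 43.4% to 56.5% for CONT SCI + SWW, each against CONT SCI. Depth limits Aif1 more than Cd74, since its mean counting error in CONT SCI + SWW, 5.72%, was as large as the spread between those samples, 5.42%. In the other groups its spread, 9.86% to 19.6%, was above the counting error, 5.51% to 5.94%.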

Other observations

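Both genes varied more between rats of a group than most genes of like abundance. The within-group SD of log2 CPM was 0.20 for Cd74, and 95.3% of 1158 genes within 0.5 log2 units of its mean level had a smaller one. For Aif1 it was 0.18, larger than in 71.6% of 1886 such genes, at counts where counting error takes a larger part. The median SD of the genes of like abundance was 0.10 beside Cd74 and 0.15 beside Aif1.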
